A study of Mus musculus with 9 samples.

Results

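The libraries titled Gr_1 were set against those titled fl, 3 of each, which makes 6 of the 9 libraries of the series. Genes were kept where at least 3 of these 6 libraries reached 1 FPKM, a fragment count scaled by exon length and by library size, which left 11885 of the 54532 genes in the table. Both groups carry the same labels: C57BL/6 mice of 6 to 8 weeks of age, wild type, with the cells given as myeloid and their source as white cells. The design text lists Gr_1 and wild-type mice separately, although the genotype label of both groups is wild type. The labels name no treatment, allele or sorting step for either group, and neither the words behind Gr_1 and fl nor the tissue are spelled out. Nothing says that the 3 libraries of a group are separate animals, and the p-values therefore reflect the variation among these libraries, part or all of which may be technical. The remaining libraries of the series, from animals labelled as lacking SOCS3, entered 1 alternative fit only. Total RNA had been extracted with a spin-column kit and sequenced as paired ends on an Illumina NovaSeq instrument.

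Neutrophils are made in the bone marrow from granulocyte-monocyte progenitors, and their granules are filled in a fixed order. Promyelocytes load the primary granules with myeloperoxidase and serine proteases, myelocytes and metamyelocytes load the secondary granules with lactoferrin and antimicrobial peptides, and band cells add gelatinase to the tertiary granules. Cell division ends at the myelocyte stage, while receptors for chemoattractants and for G-CSF rise as the cells become able to leave the marrow. Monocytes branch off from the same progenitors and carry the M-CSF receptor, coagulation factors and, as they mature, MHC class II.

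Between Gr_1 and fl, the genes of late neutrophils were higher in Gr_1, and the genes of promyelocytes, monocytes, ribosomes and DNA replication were higher in fl. The metalloprotease gene Mmp9 stood 121-fold higher in Gr_1 and the elastase gene Elane 25.9-fold higher in fl. Of the 11885 genes, 7224 passed an adjusted p under 0.05 in limma (60.8%), 3555 of them higher in Gr_1 (29.9%) and 3669 lower (30.9%). A change of 1 or more on the log2(FPKM + 1) scale was reached by 1085 of the higher genes (9.13%) and 557 of the lower ones (4.69%), and these genes are called at least 2-fold changed below. The 3 libraries of one group lay entirely above those of the other for 68.6% of all genes tested. Counts of list members are read against these shares. A member past the filter through 1 group only had to be higher in that group to be tested. Such members are counted beside the lists that held 3 or more of them in 1 direction, and the other lists held at most 2 in either direction.

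The 6 libraries held between 18302900 and 21502400 fragments in genes, which puts 3 fragments of a gene with 1 kilobase of exon at 0.136 to 0.187 FPKM. The authors' scaling left a larger FPKM sum in Gr_1 than in fl, 482567 against 362779 on average, and on that scale the median change of all genes was -0.03. When every library was rescaled to 1 sum, the median moved to -0.41 and the share of called genes that were higher in Gr_1 went from 49.2% to 23.2%. With the 10 most abundant genes kept out of the sum it was 40.7%. Changes of under about 0.4 on the log2 scale therefore depend on the scaling in their direction. The library fl C stood apart from fl A and fl B: the mean chi-square per gene was 25.3 and 29.4 in its pairs and 4.59 between the other fl libraries, and it was 4.18 to 9.34 between Gr_1 libraries. Without fl C, 3783 genes were called higher and 3886 lower.

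**Figure D1:**
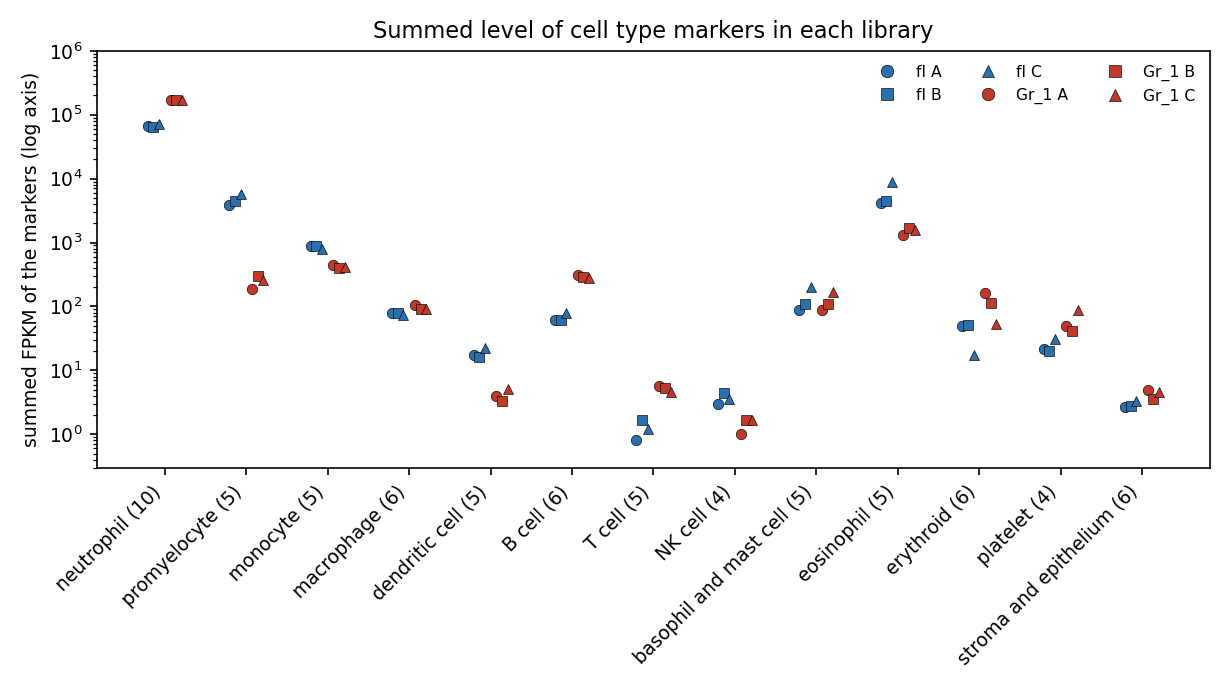
Summed FPKM of cell type markers in each library (log axis), with the number of markers of each type in parentheses; red symbols are Gr_1 libraries, blue symbols fl libraries, and the shape gives the letter of the library. The neutrophil sum lay at 169065 to 171983 in Gr_1 and 63827 to 71044 in fl, while the promyelocyte sum lay at 187 to 295 and 3795 to 5654.

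The label of myeloid cells was checked against defining markers. The summed level of 10 neutrophil markers was by far the highest of 13 cell types in all 6 libraries, mostly through S100a8, S100a9, Ngp and Camp. In fl the other neutrophil markers were far lower, down to means of 9.99 FPKM for Ly6g and 6.56 FPKM for Cxcr2. The sums add 4 to 10 markers of unlike abundance, so they do not rank the cell types by number of cells. The other types followed at lower sums. Eosinophil markers, mostly through the granule gene Prg2, stood at 1324 to 1707 FPKM in Gr_1 and 4151 to 8832 in fl. Monocyte markers stood at 398 to 445 and 786 to 885. B cell markers were present in every library, at 284 to 309.7 FPKM in Gr_1 and 61.3 to 79.1 in fl. T cell, NK cell and stromal markers stayed under 6 FPKM in sum in each library. These are bulk samples, in which fewer cells of a type and less RNA per cell cannot be told apart.

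The genes of the primary granules were lower in Gr_1. Of 15 genes listed, 14 were tested, and 12 were called lower (85.7% against 30.9% of all genes), 11 of them by at least 2-fold, with 2 called higher (0 after rescaling to 1 FPKM sum, and 1 without fl A or without fl B). The median change was -2.52. Among the 11 was Prg2, for the major basic protein of eosinophils (change -1.85). Elane, which encodes neutrophil elastase, measured 65.8, 120.1 and 92.2 FPKM in Gr_1 A, B and C and 1919.8, 2316 and 2969 FPKM in fl A, B and C. Its change was -4.70 (SE 0.24, limma adjusted p = 1.22e-05). The groups were far apart, and fl C was the highest library.

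Prtn3, for proteinase 3, showed 31.6, 52.7 and 47.9 FPKM in Gr_1 against 768, 839 and 1126 FPKM in fl, a change of -4.35 (SE 0.22). Mpo, for the myeloperoxidase that makes hypochlorous acid, had 42.1, 66.1 and 61.4 FPKM in Gr_1 and 710.0, 819 and 976 FPKM in fl and changed by -3.88 (SE 0.19). Ctsg, the gene of cathepsin G, stood at 19.5, 27.7 and 30.1 FPKM and 224, 278 and 351 FPKM, with a change of -3.41 (SE 0.21). For all 4 protease and peroxidase genes the lowest fl library lay several-fold above the highest Gr_1 library, Gr_1 A was the lowest library of its group and fl C the highest of its own.

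Smaller members of the list followed the same direction. Ms4a3, a membrane protein gene of granulocyte-monocyte progenitors, fell from 195 ± 32.6 FPKM in fl to 28.2 ± 0.514 FPKM in Gr_1 (mean ± SD, n = 3 here and below). Nkg7 and Cst7, a granule membrane protein and the protease inhibitor cystatin F, were 9.59-fold and 9.48-fold lower in Gr_1. Prss57, another serine protease, was 5.603-fold lower, and Ctsc, whose product activates the granule proteases, 4.15-fold lower. Plac8 fell 3.21-fold.

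The members that ran against this were few. Rab27a, which serves granule release, rose from 62.6 ± 1.71 FPKM to 93.1 ± 3.43 FPKM, and Srgn, the proteoglycan core of the granules, from 219 ± 18.9 to 293 ± 39.6. Their changes of 0.56 and 0.41 became 0.16 and -0.00096, neither of them called, when libraries were rescaled to 1 FPKM sum. Serpinb1a, an inhibitor of elastase and cathepsin G, had 252 ± 12.5 FPKM in Gr_1 and 288 ± 12.1 FPKM in fl, a change of -0.19 (limma adjusted p = 0.041), and the call was lost in 5 of the 6 fits that left out 1 library. Bpi was too low to be tested.

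The secondary granule genes were higher in Gr_1 in most cases. All 22 genes listed were tested, 17 were called higher (77.3% against 29.9% of all genes), 10 of them by at least 2-fold, and 1 was called lower. Their median change was 0.88. After rescaling to 1 FPKM sum, 13 were higher and 3 lower.

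Ltf, the gene of the iron-binding lactoferrin, measured 6888, 6508 and 6288 FPKM in Gr_1 and 1478, 1349 and 1368 FPKM in fl. The groups did not overlap, with a change of 2.23 (SE 0.08, limma adjusted p = 3.24e-06). Lcn2, for the siderophore-binding lipocalin 2, had 3242, 3129 and 3042 FPKM in Gr_1 and 788, 742 and 795 FPKM in fl, a change of 2.02 (SE 0.07). Ngp, the neutrophilic granule protein gene, reached 24027, 23504 and 23049 FPKM against 10318, 9909 and 11394 FPKM and changed by 1.161 (SE 0.10), the smallest rise of the 3. Ngp was no longer called under quantile normalization, where its change was 0.18. That scaling gives each library the same value at a given rank. It therefore shrinks the changes of genes that are among the most abundant in every library.

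Camp, which encodes the antimicrobial peptide precursor cathelicidin, measured 12664, 12533 and 12252 FPKM in Gr_1 and 8784, 8640.4 and 12060.2 FPKM in fl. It was not called: the change was 0.36 (SE 0.15, limma adjusted p = 0.0704), and fl C reached nearly the level of the Gr_1 libraries while fl A and fl B lay below. Without fl C it was called higher, at 0.52, and after rescaling to 1 FPKM sum it stood at -0.05, not called. Lyz2, for lysozyme M, was also close, with 10663 ± 163 FPKM in Gr_1 and 9165 ± 725 FPKM in fl. Its change of 0.22 was not called, was called higher without fl C at 0.29 and lower after rescaling at -0.19. Its near-identical neighbour Lyz1 shares sequence with it, so fragments may have been split between them.

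Fcnb, which encodes the lectin ficolin B and is made early in the secondary granule program, went the other way. It had 324, 354 and 321 FPKM in Gr_1 and 1092, 1109 and 1322 FPKM in fl, a change of -1.81 (SE 0.09). This was the only secondary granule gene called lower on the deposited scale. The largest rises in the list were those of Ceacam10, an adhesion molecule gene, which was 42.8-fold higher, Slpi, a leukocyte protease inhibitor gene, 7.15-fold, and Chil1, a chitinase-like protein gene, 5.36-fold. Olfm4, which marks a subset of neutrophils, rose 4.97-fold.

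Further members spread between these. Cd177, a neutrophil surface protein gene, rose from 423 ± 37.1 to 1391 ± 61.3 FPKM, and Wfdc21 from 711 ± 132 to 2024 ± 60.3 FPKM. The bacterial peptidoglycan receptor gene Pglyrp1 stood at 948 ± 43.3 FPKM in Gr_1 and 509 ± 107 in fl, and the haptoglobin gene Hp at 1386 ± 41.1 and 802 ± 115. Chil3, for the chitinase-like protein Ym1, changed by 0.52, from 2513 ± 42.2 to 3628 ± 398 FPKM, and by 0.11, not called, after rescaling to 1 FPKM sum.

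The list of tertiary granule and late neutrophil genes was called higher throughout. All 48 genes were tested and 48 were called higher against 29.9% of all genes, 47 of them by at least 2-fold against 9.13%. The median change was 2.86, and the changes ran from 0.71 to 7.42. 6 of them passed the filter only through the Gr_1 libraries and so had to be higher there. After rescaling to 1 FPKM sum 47 of the 48 stayed called higher and none was called lower.

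Mmp9, the gelatinase of the tertiary granules, measured 1660.4, 1729.8 and 1472 FPKM in Gr_1 and 15.7, 12.3 and 12.1 FPKM in fl. The change was 6.82 (SE 0.12, limma adjusted p = 5.32e-07). Mmp8, the neutrophil collagenase gene, had 1145, 1197 and 1126 FPKM in Gr_1 and 23.7, 22.2 and 17.2 FPKM in fl and changed by 5.73 (SE 0.12). Both metalloproteases were tightly grouped, with no library of either group near those of the other. Mmp25, a membrane-bound metalloprotease gene, and Adam8, a metalloprotease gene of the granule membrane, were both 12.5-fold higher.

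Ly6g, the surface antigen by which mature mouse neutrophils are sorted, had 706, 715 and 633 FPKM in Gr_1 and 11.4, 10.4 and 8.21 FPKM in fl, a change of 5.97 (SE 0.12). Within each library the ratio of Ly6g to Ly6c2, which marks monocytes, was 1.98 ± 0.137 in Gr_1 and 0.0206 ± 0.00354 in fl. Ly6c2 itself lay lower in Gr_1, at 345 ± 18.4 against 486 ± 11.7 FPKM. Itgam, for the integrin chain CD11b of neutrophils and monocytes, rose from 58.1 ± 0.5805 to 136 ± 0.5799 FPKM.

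The alarmins S100a8 and S100a9 were the most abundant members. S100a8 had 50488, 52080.5 and 51599 FPKM in Gr_1 and 18537, 18734 and 16746 FPKM in fl, and S100a9 had 66362, 67927 and 66785 FPKM and 25924, 24762 and 29022 FPKM. Their changes were 1.51 and 1.34. Neither was called under quantile normalization, which gives each library the same value at a given rank. Changes at the top ranks are therefore largely removed in advance. S100a8 and S100a9 held 10.7 ± 0.231% and 13.9 ± 0.198% of all FPKM in Gr_1 and 4.98 ± 0.567% and 7.32 ± 0.241% in fl. Retnlg, for the secreted resistin-like gamma, rose more steeply, from 400.4, 382 and 409 FPKM in fl to 4860.2, 5531 and 6085 FPKM in Gr_1, with a change of 3.78 (SE 0.10). The whole late neutrophil list held 29.1 ± 0.525% of the FPKM in Gr_1 and 13.2 ± 0.485% in fl.

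**Figure D2:**
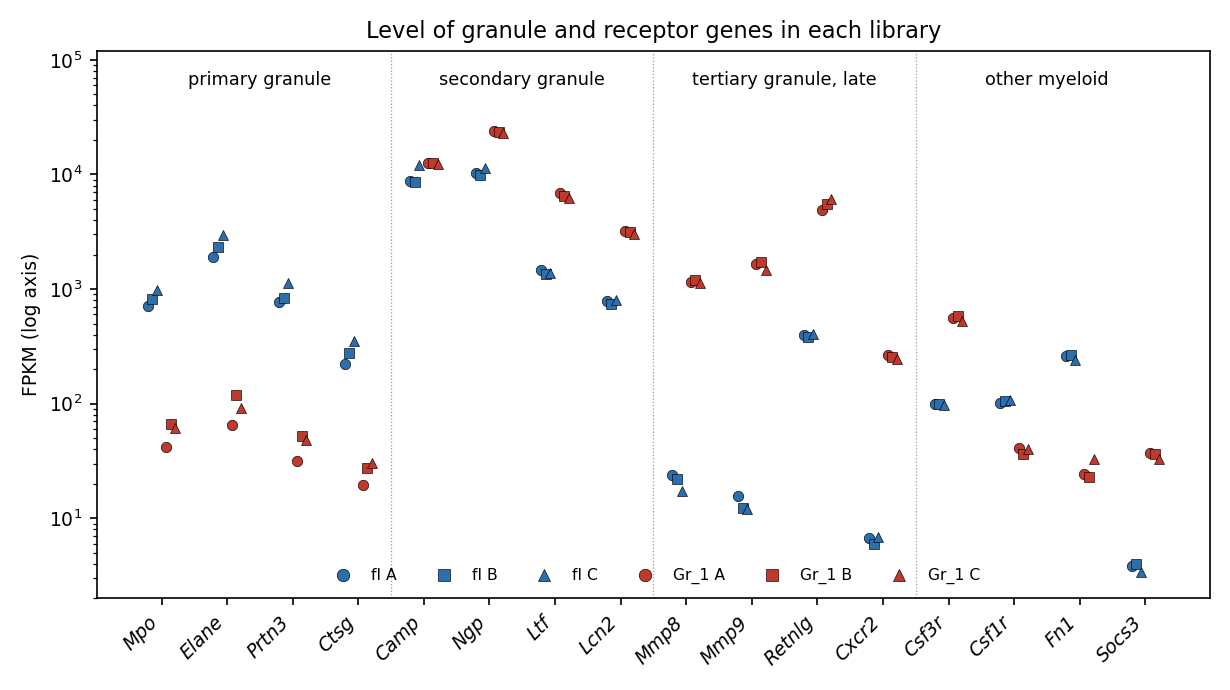
FPKM (log axis) of 16 genes in each library, with primary granule, secondary granule, tertiary granule and other myeloid genes from left to right; red symbols are Gr_1 libraries, blue symbols fl libraries, and the shape gives the letter. Primary granule genes are higher in fl, tertiary granule genes are higher in Gr_1, and Camp is nearly level between the groups.

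The largest change of any named gene was that of Stfa2l1, of the stefin A family of cysteine protease inhibitors, with 202, 220.4 and 179 FPKM in Gr_1 and 0.108, 0.4598 and 0 FPKM in fl and a change of 7.42 (SE 0.15). Stfa3 had 33.01, 43.3 and 25.8 FPKM in Gr_1 and 0.441, 0.468 and 0.131 FPKM in fl. Stfa2 was listed at 0 in all fl libraries and at 18.4, 18.5 and 9.81 FPKM in Gr_1, at least 45.2-fold higher against a floor of 3 fragments per library. With that gene set at its bound the median of the list stayed at 2.86. The stefin A genes are near-identical copies, so the split of fragments between them is uncertain. Stfa2l1, Stfa3 and Stfa2 stayed under 1 FPKM in every fl library, so they had to be higher in Gr_1 to be tested.

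Further genes of the list ranged widely in their level in fl. Asprv1, an aspartic protease gene of neutrophils, had 177, 198 and 141 FPKM in Gr_1 and 1.91, 1.25 and 2.13 FPKM in fl. It held 40 to 65 fragments per fl library. Dhrs9, a retinol dehydrogenase gene, was 66.5-fold higher and Il1f9, which encodes the cytokine IL-36 gamma, 24.5-fold higher. Clec4d, a fungal pattern receptor gene, was 36.2-fold higher, and Cd33, a sialic acid-binding receptor gene, 9.304-fold. Padi4, for the histone-citrullinating enzyme used in extracellular traps, was 4.69-fold higher. Trem1, an activating receptor gene, rose from 27.9 ± 1.22 to 215 ± 38.4 FPKM and Anxa1, for annexin A1, from 386 ± 74.7 to 1429.8 ± 57.0.

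Csf3r, the receptor gene for G-CSF, measured 562, 583 and 527 FPKM in Gr_1 and 98.8, 98.4 and 97.9 FPKM in fl, with a change of 2.49 (SE 0.06). Csf1r, the receptor gene for M-CSF, measured 40.8, 36.3 and 40.04 FPKM in Gr_1 and 102, 105 and 107 FPKM in fl, with a change of -1.41 (SE 0.07). The ratio of the first to the second within a library was 14.4 ± 1.53 in Gr_1 and 0.938 ± 0.0286 in fl, where both receptors had nearly the same level.

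**Figure D3:**
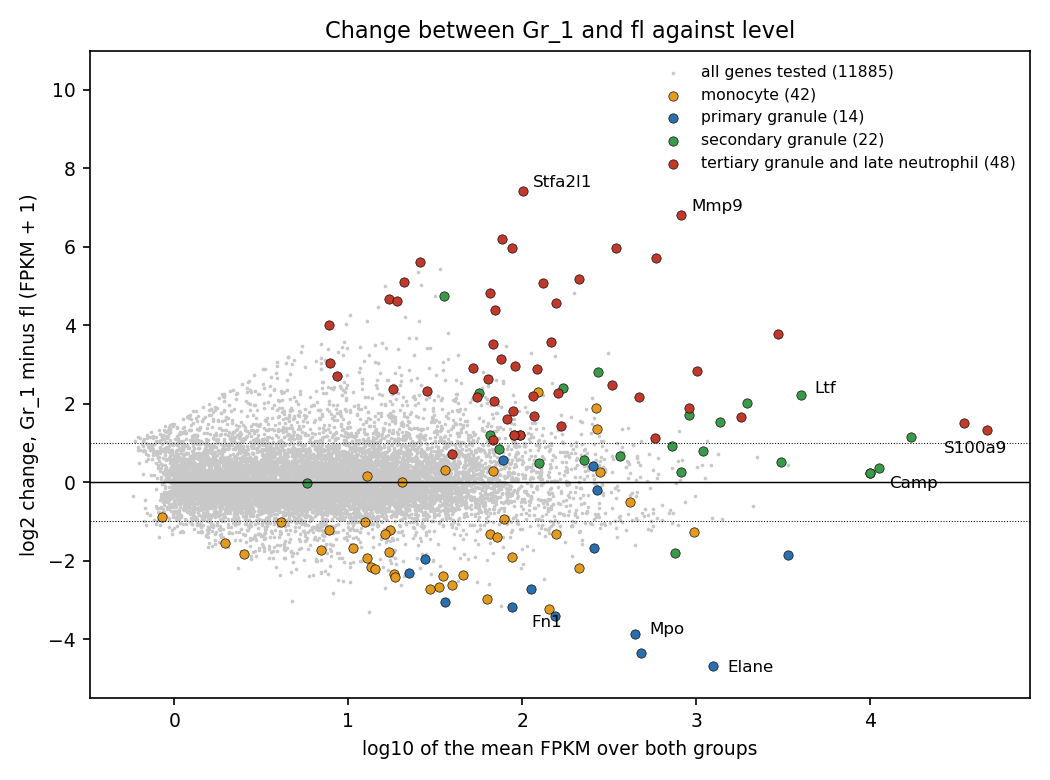
Change between Gr_1 and fl on the log2(FPKM + 1) scale against the log10 mean FPKM for the 11885 genes tested (grey), with the members of 4 lists in colour; dotted lines mark a change of 1 in either direction. Late neutrophil genes lie above 0 at all levels, primary granule and monocyte genes mostly below, and secondary granule genes reach higher levels than all but the S100 genes of the other lists.

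Among the genes with the largest changes that the granule lists did not hold, Scrg1 had 64.6, 75.3 and 60.9 FPKM in Gr_1 and 0.714, 0.619 and 0.386 FPKM in fl. H2-Q10, an MHC class Ib gene with close copies, showed 50.1, 54.7 and 45.6 FPKM in Gr_1 and 0.251, 0.111 and 0.348 FPKM in fl. Gpr27, an orphan receptor gene, measured 31.1, 37.8 and 28.1 FPKM in Gr_1 and stayed under 0.05 FPKM in fl. All 3 stayed under 1 FPKM in every fl library and so had to be higher in Gr_1 to be tested. In the other direction Gstm1, a glutathione transferase gene, had 13.8, 13.9 and 15.3 FPKM in Gr_1 and 117, 132 and 159.9 FPKM in fl, a 9.49-fold difference.

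To show the promoters of the granule genes that moved in opposite directions, the 200 bases before the transcription start are printed for 6 of them, with 2 replication genes for comparison. They are RefSeq windows on GRCm38.p6, printed 5′ to 3′ on the strand of the gene. Capitals mark matches, on either strand, to 4 motifs: TTNNGNAA for C/EBP factors, GAGGAAGT for PU.1, TTTNNCGC for E2F and TATAAA for the TATA box, where overlapping matches run together. The windows lie at chr10:79886112-79886311 (Elane, + strand), chr10:79879467-79879666 (Prtn3, +), chr11:87793584-87793783 (Mpo, +), chr9:111019092-111019291 (Ltf, +), chr9:7558229-7558428 (Mmp8, +), chr17:17883940-17884139 (Fpr1, - strand), chr8:75109309-75109508 (Mcm5, +) and chr11:98907951-98908150 (Cdc6, +).
Elane: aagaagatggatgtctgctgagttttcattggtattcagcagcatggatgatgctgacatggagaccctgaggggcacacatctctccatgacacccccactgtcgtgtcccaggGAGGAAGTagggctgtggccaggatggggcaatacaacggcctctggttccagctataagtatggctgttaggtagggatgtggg
Prtn3: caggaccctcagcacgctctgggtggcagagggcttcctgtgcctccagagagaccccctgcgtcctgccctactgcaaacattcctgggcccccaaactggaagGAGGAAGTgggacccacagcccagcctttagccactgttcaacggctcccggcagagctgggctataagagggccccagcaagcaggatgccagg
Mpo: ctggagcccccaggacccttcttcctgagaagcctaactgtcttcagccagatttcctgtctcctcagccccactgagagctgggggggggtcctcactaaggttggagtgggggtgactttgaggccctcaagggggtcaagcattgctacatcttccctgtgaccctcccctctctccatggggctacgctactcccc
Ltf: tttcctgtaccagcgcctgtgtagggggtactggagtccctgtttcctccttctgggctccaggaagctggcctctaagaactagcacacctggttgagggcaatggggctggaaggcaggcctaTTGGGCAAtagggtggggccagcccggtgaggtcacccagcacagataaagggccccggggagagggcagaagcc
Mmp8: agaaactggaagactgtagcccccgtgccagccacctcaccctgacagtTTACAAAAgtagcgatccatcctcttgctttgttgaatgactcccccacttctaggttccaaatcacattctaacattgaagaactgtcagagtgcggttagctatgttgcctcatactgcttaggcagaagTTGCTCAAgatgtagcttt
Fpr1: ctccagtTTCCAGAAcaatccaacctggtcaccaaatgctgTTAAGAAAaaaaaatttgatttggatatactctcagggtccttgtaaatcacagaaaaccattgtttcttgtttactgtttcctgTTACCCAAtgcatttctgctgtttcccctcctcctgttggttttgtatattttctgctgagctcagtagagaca
Mcm5: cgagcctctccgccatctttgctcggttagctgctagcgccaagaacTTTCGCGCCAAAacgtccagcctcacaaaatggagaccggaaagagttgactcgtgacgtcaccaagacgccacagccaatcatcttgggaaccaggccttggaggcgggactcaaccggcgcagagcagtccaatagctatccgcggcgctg
Cdc6: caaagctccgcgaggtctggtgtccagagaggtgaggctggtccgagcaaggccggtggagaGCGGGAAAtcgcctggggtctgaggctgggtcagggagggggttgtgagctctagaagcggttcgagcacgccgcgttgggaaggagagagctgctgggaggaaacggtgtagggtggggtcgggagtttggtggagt

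In these letters the Elane and Prtn3 windows, which belong to neighbouring genes, each held 1 PU.1 match, 85 and 95 bases before the start. The Ltf window held 1 C/EBP match, the Mmp8 window 2 and the Fpr1 window 3, while Mcm5 held 2 overlapping E2F matches and Cdc6 held 1. The Mpo window held none of the 4 motifs. Among all 32851 RefSeq windows of this length, 30.0% held the C/EBP letters, 2.06% the PU.1 letters, 3.53% the E2F letters and 9.96% the TATA letters.

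Over whole lists, RefSeq windows were matched by symbol for 11 of the 14 tested primary granule genes, 18 of 22 secondary granule genes, 41 of 48 late neutrophil genes and 36 of 44 replication genes. The C/EBP letters occurred in 42.9%, 42.1% and 46.7% of the windows of the 3 neutrophil lists, in that order, and in 22.9% of the windows of all tested genes. The E2F letters occurred in 10 of 42 replication windows and in 5.88% of the windows of all tested genes. The PU.1 letters were in 3 of 14 primary granule windows, and in 2.56% of the windows of all tested genes. They were in 5.08% of the windows of genes at least 2-fold higher in Gr_1 and 2.65% of those at least 2-fold lower. In the same order the C/EBP letters were in 27.4% and 26.5% and the E2F letters in 3.39% and 6.11%. For the TATA letters it was 8.35% and 5.5%, against 4.62% of the windows of all tested genes. These are counts of letters and not of bound sites, and the lists are small.

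The NADPH oxidase, which makes superoxide in the phagosome, was higher in Gr_1 in part. Of 9 genes listed, all tested, 6 were called higher and none lower (after rescaling to 1 FPKM sum, 5 higher and 2 lower). The share called higher was 66.7% against 29.9% of all genes. The list also held Cyp4f18, a cytochrome P450 gene outside the oxidase, which was among those called and had the largest rise (1.21). The cytosolic subunit gene Ncf1 rose from 292 ± 22.6 to 568 ± 24.9 FPKM. Cybb, the catalytic membrane subunit gene, rose from 285 ± 53.4 to 448 ± 1.81 FPKM, with fl C the lowest library.

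Receptors for chemoattractants were largely higher in Gr_1. Of 28 genes listed, 21 were tested, 1 of them past the filter only through Gr_1, and 14 were called higher and 2 lower. That is 66.7% higher, against 29.9% of all genes. Fpr1 and Cxcr2, given next, were also on the late neutrophil list. Fpr1, which senses formyl peptides of bacteria, had 153, 151 and 154 FPKM in Gr_1 and 1.41, 1.35 and 0.613 FPKM in fl, a change of 6.20 (SE 0.15). Cxcr2, the receptor gene for neutrophil-attracting chemokines, had 265, 257 and 247 FPKM in Gr_1 and 6.799, 6.02 and 6.87 FPKM in fl, a change of 5.09 (SE 0.07, limma adjusted p = 5.17e-07). Replicates of both genes agreed closely in Gr_1, and the groups did not overlap. Fpr2 was 25.4-fold higher and the complement receptor gene C5ar1 10.1-fold higher. The members called lower were the chemokine receptors of monocytes, Ccr2 (14.2, 10.5 and 16.4 FPKM in Gr_1, 92.6, 90.8 and 47.95 FPKM in fl) and Cx3cr1 (5.21, 4.77 and 6.15 and 32.5, 32.2 and 28.8 FPKM). For Ccr2 the library fl C lay well below fl A and fl B.

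Among 30 tested cytokine and growth factor receptor genes, 14 were called higher and 11 lower, and 7 and 14 after rescaling to 1 FPKM sum. On the deposited scale these were 46.7% and 36.7%, against 29.9% and 30.9% of all genes. Il1r2, the decoy receptor gene for IL-1, was 6.58-fold higher in Gr_1. Il10ra, for a chain of the IL-10 receptor, had 16.3 ± 4.33 FPKM in Gr_1 and 49.5 ± 3.94 in fl, and Il6st, for the gp130 chain shared by IL-6 family cytokines, 1.76 ± 0.385 and 6.204 ± 0.562. Tnfrsf1b, a TNF receptor gene, was 2.804-fold lower in Gr_1.

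The pattern recognition receptors split as well, with 18 called higher and 10 lower of 34 tested (11 and 11 after rescaling to 1 FPKM sum). Before rescaling this was 52.9% and 29.4%, against 29.9% and 30.9% of all genes. Tlr5, which recognises flagellin and passed the filter only through Gr_1, was 10.8-fold higher there, and Clec4e, which binds mycobacterial glycolipid, 5.59-fold. Nlrc4, an inflammasome sensor gene, was 3.74-fold lower, the DNA sensor gene Tlr9 3.09-fold lower, and Tmem173, for the adaptor STING, 2.64-fold lower.

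Of 58 transcription factor genes of granulocytes and monocytes, 55 were tested. On the deposited scale 25 were called higher and 19 lower, and after rescaling to 1 FPKM sum 15 and 26, so the balance of the list turned with the scaling. The deposited scale gave 45.5% and 34.5%, against 29.9% and 30.9% of all genes. At least 2-fold changes were fewer, with 9 higher and 11 lower.

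The C/EBP factors, which drive the granule genes, did not move together. Cebpa, the factor of the progenitor stage, had 20.9, 23.5 and 23.3 FPKM in Gr_1 and 47.2, 52.3 and 76.8 FPKM in fl, a change of -1.31 (SE 0.17). Cebpe, needed for secondary granules, stood at 432, 434 and 386 FPKM and 375, 351 and 443 FPKM and was not called (change 0.10, SE 0.10, limma adjusted p = 0.415). It was called lower after rescaling to 1 FPKM sum, at -0.31, and higher without fl C, at 0.20. Cebpb, used in emergency granulopoiesis, had 207, 248 and 217 FPKM in Gr_1 and 154, 151 and 228 FPKM in fl and was not called either (change 0.35), with fl C inside the range of Gr_1. Without fl C it was called higher, at 0.55, and after rescaling it stood at -0.06, not called. Cebpd rose from 49.1 ± 10.2 to 86.4 ± 3.89 FPKM.

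The largest rise of the list was that of Mxd1, a partner of Max that opposes Myc, from 29.2, 25.8 and 33.01 FPKM in fl to 255, 264 and 320.1 FPKM in Gr_1 (change 3.21, SE 0.12). Max rose 3.18-fold, Ets2 4.37-fold, Bach2 4.27-fold and Bcl6 2.79-fold. Among the factors of monocytes, Klf4 was 7.07-fold lower in Gr_1, Irf5 3.87-fold and Irf8 2.49-fold. Gfi1, a repressor of monocyte genes in early granulocytes, was also lower, with 13.8, 14.1 and 14.7 FPKM in Gr_1 and 29.4, 29.9 and 41.3 FPKM in fl. Spi1, which encodes PU.1, had 331 ± 23.2 FPKM in Gr_1 and 228 ± 28.3 in fl, a change of 0.54 that became 0.13, not called, after rescaling to 1 FPKM sum.

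Genes of DNA replication were lower in Gr_1. All 44 genes listed were tested, 39 were called lower (88.6% against 30.9% of all genes) and none higher, with a median change of -0.66. On the deposited scale 2 of them were at least 2-fold lower, and none without Gr_1 C or without fl C. After rescaling to 1 FPKM sum 26 were, with a median of -1.09. Mcm5, a subunit gene of the replicative helicase, had 49.99, 45.6 and 38.5 FPKM in Gr_1 and 86.9, 79.97 and 109 FPKM in fl. Cdt1, which loads that helicase, had 15.4, 15.1 and 13.4 FPKM and 31.4, 28.7 and 32.1 FPKM, and Cdc6, which licenses origins, 6.17, 5.86 and 5.19 FPKM and 12.05, 11.7 and 12.1 FPKM. In all 3 genes the Gr_1 libraries lay below every fl library.

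Genes of mitosis came next. Of 59 tested genes, 30 were called lower (50.8% against 30.9% of all genes) and 1 higher, with a median of -0.25. That count of lower genes ranged from 22 without Gr_1 B to 40 without fl C, and it was 48 after rescaling to 1 FPKM sum. Mki67, the proliferation antigen Ki-67, had 45.7, 62.8 and 57.7 FPKM in Gr_1 and 69.8, 61.7 and 42.8 FPKM in fl, and the groups overlapped (change -0.05, SE 0.20). Mybl2, a regulator of mitotic genes, fell 2.22-fold, and Cdc25b, which starts mitosis, was the 1 member called higher (2 were without fl B), at 25.4 ± 2.29 against 11.2 ± 0.156 FPKM.

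Among cyclins and cell cycle inhibitors 9 of 24 tested genes were called higher and 9 lower (6 and 14 after rescaling to 1 FPKM sum). That is 37.5% in each direction, near the 29.9% and 30.9% of all genes. The inhibitor genes Cdkn1b and Cdkn2d were 1.81-fold and 1.95-fold higher in Gr_1, and Gadd45a, a growth arrest gene, 3.86-fold. Cdkn1a, for the inhibitor p21, was 2.56-fold lower, as was E2f1, the activator of S phase genes, 1.87-fold.

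Ribosomal protein genes were lower in Gr_1 almost without exception. All 81 were tested, and 76 were called lower (93.8% against 30.9% of all genes), 29 of them by at least 2-fold. None was called higher, and the median change was -0.95. The count of at least 2-fold lower genes was 70 after rescaling to 1 FPKM sum, 19 without Gr_1 C and 13 without fl C. The list held 3.16 ± 0.127% of all FPKM in Gr_1 and 7.86 ± 0.621% in fl. Rps18 had 131, 127 and 113 FPKM in Gr_1 and 253, 283 and 368 FPKM in fl, and fl C was the highest library. Ribosomal protein genes have many processed copies in the genome, so their single values are uncertain. Of 40 tested ribosome assembly genes, 29 were called lower (72.5% against 30.9% of all genes) and 1 higher. The nucleolar methyltransferase gene Fbl went from 24.4 ± 3.42 to 13.9 ± 1.79 FPKM, and the member called higher was Polr1a, for the large subunit of RNA polymerase I (10.9 ± 0.289 against 2.93 ± 0.217 FPKM).

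The nuclear genes of oxidative phosphorylation showed 43 of 75 tested members called lower (57.3% against 30.9% of all genes). None was called higher, and the median was -0.37. After rescaling to 1 FPKM sum 74 were called lower, with a median of -0.78. Without fl C, 2 were called higher and 45 lower. Of the 13 genes that mitochondria encode themselves, 7 were called lower (53.8% against 30.9% of all genes) and none higher. Mt-Nd1, a complex I subunit, had 404, 438 and 399 FPKM in Gr_1 and 754, 819 and 588 FPKM in fl, with fl C the lowest of its group.

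Of 36 tested glycolysis and glycogen genes, 20 were called higher (55.6% against 29.9% of all genes) and 5 lower (13.9% against 30.9%) on the deposited scale. After rescaling to 1 FPKM sum 11 were higher and 15 lower. The transporters led the list under both: Slc2a3, a glucose transporter gene, had 165, 166 and 152 FPKM in Gr_1 and 21.6, 18.8 and 19.4 FPKM in fl, and Slc16a3, which exports lactate, 132, 148 and 160.2 FPKM and 29.3, 28.9 and 34.4 FPKM. Pygl, the glycogen phosphorylase gene, was 2.73-fold higher. Slc2a3 and Pygl were also on the granule or late neutrophil lists. Ldhb, a lactate dehydrogenase subunit gene, was 3.63-fold lower.

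**Figure D4:**
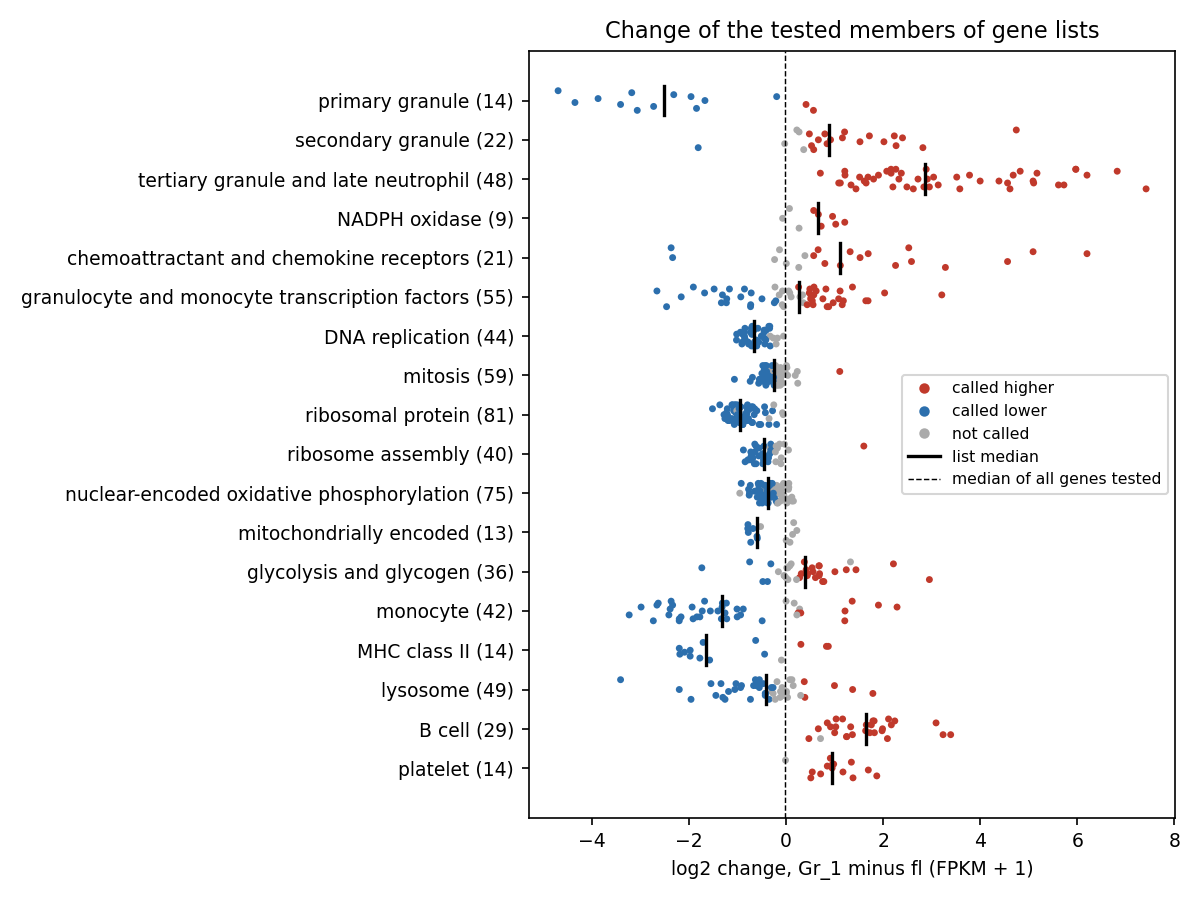
Change between Gr_1 and fl on the log2(FPKM + 1) scale for the tested members of 18 gene lists, with the number tested in parentheses; red points were called higher in Gr_1, blue points lower, grey points were not called, black bars are list medians and the dashed line is the median of all genes tested. Late neutrophil and B cell genes lie to the right of the dashed line, and primary granule, monocyte, MHC class II, ribosomal protein and DNA replication genes mostly to the left. After rescaling to 1 FPKM sum the median of the transcription factor list turned to -0.15 and that of the glycolysis list was 0.00.

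Monocyte genes were lower in Gr_1. Of 43 listed, 42 were tested, 31 were called lower (73.8% against 30.9% of all genes), 28 of them by at least 2-fold (4.69% of all genes), and 7 higher. Of those tested, 3 passed the filter only through fl. The median change was -1.33. Fn1, for the matrix protein fibronectin, had 24.2, 22.8 and 32.99 FPKM in Gr_1 and 261, 266 and 243 FPKM in fl, a change of -3.23 (SE 0.14, limma adjusted p = 5.5e-06). F13a1, a coagulation factor subunit gene of monocytes, had 13.7, 10.2 and 15.7 FPKM in Gr_1 and 127, 122 and 85.98 FPKM in fl, and F10, for coagulation factor X, 6.08, 6.39 and 8.35 FPKM and 45.98, 52.3 and 56.8 FPKM. No library of one group entered the range of the other for these genes. The members called higher included Slfn1, of a family with close copies (4.97-fold), Plbd1, a phospholipase gene that neutrophils also express (3.76-fold), and Thbs1, for thrombospondin 1 (2.62-fold).

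Of the MHC class II genes and their helpers, 14 of 15 were tested. There 10 were called lower (71.4% against 30.9% of all genes) and 3 higher (21.4% against 29.9%). H2-Aa, a class II chain gene, had 24.03, 19.99 and 31.3 FPKM in Gr_1 and 94.99, 89.9 and 118 FPKM in fl, and H2-Eb1 had 40.99, 30.1 and 42.4 FPKM and 161, 148 and 181 FPKM. Ctss, the protease that trims the invariant chain, was 4.59-fold lower and Ifi30, a lysosomal thiol reductase gene, 4.64-fold lower. The members called higher were Cd80, a costimulatory ligand gene, H2-Ob, which B cells express, and H2-DMb2.

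Dendritic cell genes gave 10 lower (55.6% against 30.9% of all genes) and 7 higher (38.9% against 29.9%) among 18 tested of 28 listed. After rescaling to 1 FPKM sum 11 were lower and 4 higher. The lectin genes Mgl2 and Cd209a were lower, at 1.34, 1.58 and 1.76 FPKM in Gr_1 against 21.96, 21.9 and 29.9 FPKM in fl for the first and 1.42, 0.522 and 2.05 against 14.8, 12.5 and 17.8 FPKM for the second. Dntt and Ly6d, called higher, are also genes of lymphoid precursors.

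The macrophage list showed no common direction, with 15 higher and 14 lower of 32 tested (13 and 15 after rescaling to 1 FPKM sum). Before rescaling this was 46.9% and 43.8%, against 29.9% and 30.9% of all genes. Cd5l, a secreted scavenger protein gene of tissue macrophages, was 7.73-fold higher in Gr_1, Slc40a1, the iron exporter ferroportin, 3.15-fold higher, and Fcgr4, an IgG receptor gene shared with neutrophils, 3.401-fold higher. Adgre1, for the macrophage antigen F4/80, had 22.7 ± 0.624 FPKM in Gr_1 and 41.5 ± 2.42 in fl. Cd68, a lysosomal membrane protein gene, was 2.85-fold lower and Apoe, for apolipoprotein E, 2.36-fold lower. Of 49 tested lysosomal genes, 28 were called lower (57.1% against 30.9% of all genes) and 5 higher (10.2% against 29.9%). After rescaling to 1 FPKM sum it was 43 and 3. Ctsg and Ctss were among the lower and Ctse and Cln3 among the higher ones, at 3.698-fold and 2.70-fold.

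Eosinophil granule genes were lower in Gr_1. Prg2, for the major basic protein, which the primary granule list also held, had 1202, 1552 and 1449.7 FPKM in Gr_1 and 3789.5, 4102 and 8107 FPKM in fl, a change of -1.85 (SE 0.29, limma adjusted p = 0.00155). Epx, the eosinophil peroxidase gene, had 66.9, 85.6 and 81.7 FPKM in Gr_1 and 221, 243 and 456 FPKM in fl. The groups did not overlap, but fl C lay far above fl A and fl B for both genes, and the change without it was -1.50 for Prg2 and -1.57 for Epx. Over the list of basophil, mast cell and eosinophil genes 11 of 26 tested were called lower (42.3% against 30.9% of all genes). The 3 called higher made up 11.5%, against 29.9% of all genes. After rescaling to 1 FPKM sum 17 were lower and 2 higher. Of 5 eosinophil markers 3 were called lower, and none of the 5 basophil and mast cell markers was called in either direction, with sums of 86.4 to 167 FPKM in Gr_1 and 88.98 to 202 in fl. Hdc, the histamine-forming enzyme gene, which neutrophils express too, was 4.31-fold higher and was also on the granule or late neutrophil lists.

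Genes of B cells were higher in Gr_1. Of 30 listed, 29 were tested, 2 of them past the filter only through Gr_1. There 28 were called higher (96.6% against 29.9% of all genes) and none lower. Igll1, part of the surrogate light chain of pre-B cells, had 42.2, 39.2 and 27.2 FPKM in Gr_1 and 3.93, 2.63 and 1.37 FPKM in fl. Vpreb1, the other part, had 48.02, 49.7 and 34.5 FPKM and 4.13, 4.02 and 3.11 FPKM, and Dntt, the template-free DNA polymerase of rearranging lymphocytes, 23.9, 27.5 and 17.1 FPKM and 1.71, 2.196 and 1.398 FPKM. All 3 lay above fl in every Gr_1 library, with Gr_1 C the lowest of its group. The summed level of 6 B cell markers was 4.36-fold higher in Gr_1, and no marker was at 0 in either group.

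T cell genes were mostly too low to test: 6 of 22 passed the filter, 2 only through Gr_1. Of those tested, 5 were called higher (83.3% against 29.9% of all genes). Cd3d, of the T cell receptor complex, had 4.71, 4.01 and 3.41 FPKM in Gr_1 and 0.3005, 0.6104 and 0.268 FPKM in fl. The 5 T cell markers summed to 4.51 to 5.78 FPKM in Gr_1 and 0.818 to 1.699 in fl. Of the NK cell genes 4 of 14 were tested and 3 were called lower (75% against 30.9% of all genes). Among them was Klrd1, a lectin-like receptor gene (0.621 ± 0.124 against 2.099 ± 0.426 FPKM), which passed the filter only through fl and so had to be lower in Gr_1. Another was Nkg7, given above with the primary granule genes, which made up 158 of the 171 FPKM of the NK cell list in fl on average. The part of lymphoid RNA in the results for other genes was not tested.

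Platelet genes were higher in Gr_1, with 13 of 14 tested called higher (92.9% against 29.9% of all genes) and none lower. Of those tested, 3 passed the filter only through Gr_1 and had to be higher there. Ppbp, a platelet chemokine gene, had 25.4, 16.8 and 43.99 FPKM in Gr_1 and 7.596, 6.63 and 8.54 FPKM in fl, and Pf4, for platelet factor 4, 13.4, 12.7 and 25.2 FPKM and 4.73, 4.34 and 9.301 FPKM, with Gr_1 C the highest library for both. Erythroid genes gave 9 higher (52.9% against 29.9% of all genes) and 3 lower (17.6% against 30.9%) of 17 tested. Without Gr_1 B 5 were higher, and after rescaling to 1 FPKM sum 5 were higher and 5 lower. The haemoglobin gene Hbb-bs had 41.8, 27.3 and 14.1 FPKM in Gr_1 and 13.7, 12.4 and 6.197 FPKM in fl, so that Gr_1 C was close to fl A, and it has a near-identical copy. Its call was lost without Gr_1 A, Gr_1 B, fl B or fl C, where the change ran from 0.88 to 1.36. Of the stromal, endothelial and epithelial genes 7 of 24 were tested. There 4 were called higher (57.1% against 29.9% of all genes) and none lower (4 and 2 after rescaling to 1 FPKM sum). Of those tested, 3, Cxcl12 among them, passed the filter only through Gr_1 and had to be higher there. Acta2, for smooth muscle actin, had 16.4 ± 0.174 FPKM in Gr_1 and 1.68 ± 0.132 in fl, and Cxcl12, the retention chemokine of marrow stroma, 2.64 ± 0.761 and 0.111 ± 0.0104. The collagen gene Col3a1, singled out after its values were seen, was listed at 0 in all 3 fl libraries. It was low in Gr_1 too: the 6 stroma and epithelium markers that include it summed to 3.58 to 4.87 FPKM there. In fl they summed to 2.66 to 3.27 FPKM.

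The title of the series names SOCS3, miR-155, C/EBPβ, Wnt and autophagy in suppressor cells, so the genes of these pathways were compared between the wild-type groups. Socs3, the feedback inhibitor of G-CSF and IL-6 receptor signalling, had 37.01, 36.6 and 32.98 FPKM in Gr_1 and 3.87, 4.02 and 3.405 FPKM in fl, a change of 2.94 (SE 0.08, limma adjusted p = 1.28e-06). It was the largest rise of the SOCS, JAK and STAT list. Of 32 tested genes there, 18 were called higher (56.25% against 29.9% of all genes) and 6 lower (18.75% against 30.9%). After rescaling to 1 FPKM sum it was 9 and 13. Stat3, which G-CSF activates, had 44.2 ± 1.23 FPKM in Gr_1 and 29.5 ± 2.24 in fl. Its change of 0.57 was 0.17, still called, after rescaling. Jak1, a receptor-bound kinase gene, was 2.05-fold higher, Mcl1, a survival factor gene of neutrophils, 2.08-fold higher, and the kinase gene Tyk2 1.96-fold lower. Mir155hg, the host gene of miR-155, was too low to be tested, with between 1 and 10 fragments per Gr_1 library and between 0 and 1 per fl library.

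Among effectors of suppressor cells 26 of 34 genes were tested. There 18 were called higher (69.2% against 29.9% of all genes) and 2 lower (7.69% against 30.9%). Without fl C it was 18 and 4, and after rescaling to 1 FPKM sum 15 and 7. The list shares Il1b, Arg2, Mmp9, S100a8 and S100a9 with the late neutrophil list. Of its tested members 3, Arg2 among them, passed the filter only through Gr_1 and 1 only through fl, which fixed their direction. Arg2, the mitochondrial arginase gene, had 38.1, 40.4 and 46.05 FPKM in Gr_1 and 0.3501, 0.135 and 0.227 FPKM in fl, a change of 5.10 (SE 0.10). Arg1, the cytosolic arginase gene, was under the filter in both groups, with 0.112, 0.124 and 0.112 FPKM in Gr_1 and 0.102, 0.151 and 0.1699 FPKM in fl. Nos2, for inducible nitric oxide synthase, had between 1 and 4 fragments per library in Gr_1 and 0 in fl. Tgfb1, for transforming growth factor beta 1, was 1.68-fold lower in Gr_1.

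Of the autophagy genes 30 of 50 tested were called higher (60% against 29.9% of all genes) and 5 lower (10% against 30.9%) on the deposited scale. After rescaling to 1 FPKM sum 16 were higher and 18 lower. The 4 largest rises kept their direction under that scaling. Ulk1, the kinase that starts autophagy, was 2.66-fold higher, Map1lc3b, whose product LC3B coats the autophagosome, 2.42-fold, Atg3, which attaches lipid to LC3, 2.29-fold and Atg2a, a lipid transfer protein gene, 2.14-fold. Map1lc3b measured 44.9, 45.7 and 45.98 FPKM in Gr_1 and 18.04, 18.4 and 19.98 FPKM in fl. Becn1 and Sqstm1, for beclin 1 and the cargo receptor p62, changed by 0.36 and 0.37, and by -0.034 and -0.033, not called, after rescaling. The LC3 relative Gabarapl1 was 1.81-fold lower.

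For Wnt signalling 30 of 46 genes were tested, with 14 higher (46.7% against 29.9% of all genes) and 4 lower (13.3% against 30.9%). After rescaling to 1 FPKM sum it was 10 and 15. Ctnnb1, which encodes beta-catenin, had 37.03 ± 0.479 FPKM in Gr_1 and 35.5 ± 0.348 in fl and was not called (change 0.06, SE 0.05). After rescaling it was called lower, at -0.35. The target gene Cd44 was 2.16-fold higher, and Ctnnbip1, an inhibitor of beta-catenin, 2.904-fold, while the coreceptor gene Lrp5 was 2.66-fold lower and the receptor gene Fzd7, past the filter only through fl, 2.54-fold.

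The mTOR list had 19 of 41 tested genes called higher (46.3% against 29.9% of all genes) and 7 lower (17.1% against 30.9%). After rescaling to 1 FPKM sum it was 9 and 21. Sesn2, an amino acid sensor gene, was 5.12-fold higher, and Prkab1, a subunit gene of AMP kinase, 2.88-fold higher, and both are known to act against the pathway. Deptor, an inhibitor of mTOR itself that passed the filter only through fl, was 4.08-fold lower.

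Inflammatory cytokines and chemokines changed both ways, 12 higher and 6 lower of 27 tested (9 and 12 after rescaling to 1 FPKM sum). Before rescaling this was 44.4% and 22.2%, against 29.9% and 30.9% of all genes. Il1b had 381, 397 and 461 FPKM in Gr_1 and 11.2, 10.6 and 9.59 FPKM in fl, a change of 5.17 (SE 0.09), and its receptor antagonist gene Il1rn was 15.3-fold higher. Cxcl2, a neutrophil-attracting chemokine gene, had 76.7, 81.4 and 168 FPKM in Gr_1 and 19.6, 16.7 and 17.4 FPKM in fl, with Gr_1 C well above Gr_1 A and Gr_1 B. The monocyte-attracting chemokine gene Ccl2 was 4.69-fold lower in Gr_1, Ccl9 5.99-fold and Ccl3 2.45-fold.

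Interferon response genes also split, 18 higher and 9 lower of 40 tested (13 and 12 after rescaling to 1 FPKM sum). Before rescaling this was 45% and 22.5%, against 29.9% and 30.9% of all genes. Slfn4, of a family with close copies, had 394, 368 and 387 FPKM in Gr_1 and 15.7, 13.2 and 9.45 FPKM in fl. Rsad2, for viperin, was 6.01-fold higher and Oas3, a sensor gene of double-stranded RNA, 4.67-fold, while the antiviral GTPase gene Mx1 was 5.27-fold lower. Mx1 had 2.24, 1.43 and 3.003 FPKM in Gr_1 and 14.9, 10.5 and 9.69 FPKM in fl, low in every Gr_1 library.

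Genes of the cytoskeleton and migration had 36 of 48 tested called higher (75% against 29.9% of all genes) and 6 lower (12.5% against 30.9%). After rescaling to 1 FPKM sum it was 19 and 12. Actn1, which crosslinks actin, rose 4.17-fold, Lcp1, the leukocyte plastin gene, 2.79-fold and Vasp, an actin polymerase gene, 2.62-fold. Itgb7 and Itgb1, integrin beta chain genes, were 3.87-fold and 1.92-fold lower, and Itga4, whose product retains cells in the marrow, 1.63-fold lower.

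Immediate early and heat shock genes were 13 higher and 11 lower of 37 tested, and 6 and 21 after rescaling to 1 FPKM sum. Atf3, a stress-induced factor gene, was 5.39-fold lower in Gr_1 and Jun 2.804-fold lower, while Egr1 was 2.15-fold higher. Apoptosis genes were 8 higher and 11 lower of 28 tested (3 and 17 after rescaling to 1 FPKM sum), with the death receptor gene Fas 3.38-fold higher and Bax, which permeabilises mitochondria, 1.79-fold lower. Progenitor genes, of which 22 of 30 were tested, were 6 higher and 7 lower (4 and 10 after rescaling). Kit, the stem cell factor receptor gene, had 6.87 ± 0.820 FPKM in Gr_1 and 10.02 ± 0.847 in fl, and Cd34, a progenitor surface protein gene, 2.15 ± 0.415 and 2.01 ± 0.352, where the groups overlapped. On the deposited scale the shares called in these 3 lists lay between 27.3% and 39.3% in either direction, near the 29.9% and 30.9% of all genes.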

How the data were processed

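The deposited table gave 1 FPKM value per gene and library, computed by the authors, per the file headers. The submitters' processing notes name featureCounts (1.5.0-p3), DESeq2 (1.16.1) and, as builds, GRCm38 and mm10. Their roles, the aligner and whether counting used strand are not given in the sources used here, so overlapping antisense genes cannot be told apart.

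Symbols, exon lengths and coordinates came from GENCODE M21 on GRCm38. Values multiplied by exon length came in steps of 1 fragment: 97.2% to 97.5% of values under 1000 fragments were whole within 0.02. Levels of 3 fragments cover counting error only.

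Genes with at least 1 FPKM in 3 of the 6 libraries entered limma (3.58.1, R 4.3.3) on log2(FPKM + 1), with a mean-variance trend, 1 term per group, no block and 4 residual degrees of freedom. All limma tests were two-sided, with Benjamini-Hochberg adjustment over 11885 genes and calls under 0.05. The change on this scale understates that of low genes. Folds are ratios of mean FPKM, given only where the lower group held more than 3 fragments. With 3 libraries against 3, an exact permutation test (two-sided) cannot give a p below 0.1, so no single level or sum can pass 0.05 by it. On simulated data the limma test was checked for the recovery of known changes.

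The comparison, its members and the 39 gene lists were chosen with earlier results of these data known. Of 1293 listed symbols, 6 were not matched. Genes named in the text were the 12 largest rises and 12 largest falls among genes that were called, had a plain symbol, showed no overlap and reached a mean of 10 FPKM in the higher group. From each list up to 4 called members per direction were added, and the granule, NADPH oxidase and transcription factor lists, with 20 single genes, could be named whatever their values. A few genes that this rule names are not reported here. Promoters were RefSeq windows, of which Mpo, Elane, Prtn3, Ltf, Mmp8, Fpr1, Mcm5 and Cdc6 were shown after their values were seen. The alternatives were 2 pseudocounts, 2 filters, 3 scalings, 2 other variance models, voom on recovered fragments, a replicate block, a fit over all 9 libraries and leaving out each library in turn. Python 3.11.15 with pandas 2.3.3, scipy 1.17.1 and matplotlib 3.10.9 made the tables and figures.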

Additional observations from a re-analysis of the deposited data

How the results depend on the processing

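Each alternative changed 1 choice, except voom on recovered fragments, which replaced both the offset of 1 FPKM and the variance model and kept the deposited library scaling. Rescaling every library to 1 FPKM sum gave 1929 genes higher and 6371 lower, against 3555 and 3669, and 1842 lower by 1 or more on the log2 scale, against 557. With a pseudocount of 5 FPKM 527 were higher and 231 lower by 1 or more, with a pseudocount of 0.1 FPKM 850 were lower by 1 or more, and with voom on recovered fragments 884 were. Leaving out 1 library gave from 3087 to 3783 genes higher and from 3133 to 3886 lower, the most without fl C, and 5780 genes were called the same way in the full fit and in each of these 6 fits, which kept the gene set of the filter over 6 libraries. With a replicate block by the letter of the library 3298 genes were higher and 3302 lower. The letters did not pair the samples: deviations of same-letter libraries correlated at -0.07 to 0.04 across genes and those of other pairs at -0.07 to 0.08.

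After rescaling to 1 FPKM sum, the changes of 6 named genes called before or after it turned: Srgn to -0.00096, Lyz2 to -0.19, Cebpe to -0.31, Becn1 to -0.034, Sqstm1 to -0.033 and Ctnnb1 to -0.35. Camp, Cebpb and Cd34, called on neither side, turned to -0.05, -0.06 and -0.26. Of 182 tested genes named, 165 kept their side of the threshold under all 18 alternatives, and their direction where called. Of 1404 counts of list members 56 moved by over 1.5 times, 33 of them on rescaling. Depth limits genes near 3 fragments, such as Mir155hg and Nos2.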

Other observations

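Runs of at least 3 neighbouring tested protein-coding genes that were all at least 2-fold changed the same way were looked for after the values were seen. There were 27 runs of genes higher in Gr_1 and 7 of genes lower, and their members were chosen by that search alone. The longest run was the stefin A cluster at chr16:36156811-36455392, where 7 genes rose by between 2.19 and 7.42 on the log2(FPKM + 1) scale. The S100 genes S100a6, S100a8, S100a9 and S100a11 followed each other at chr3:90612882-93526287, with changes from 1.34 to 2.16. The acute phase genes Orm1, Orm2 and Orm3, for orosomucoids, lay with Rgs3 at chr4:62559847-63365878. Rufy4, Cxcr2 and Cxcr1 formed a run at chr1:74125541-74194631. The complement genes C1qa, C1qb and C1qc of macrophages formed another at chr4:136880129-136898803, with changes from 1.23 to 1.51. The macrophage list had no common direction, with 15 of 32 tested genes called higher and 14 lower.

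In the other direction Plppr3, Prtn3 and Elane were neighbours at chr10:79860475-79888215, with changes from -4.70 to -1.94. The class II genes H2-Ab1, H2-Aa and H2-Eb1 lay at chr17:34257689-34316674 and the monocyte genes Ms4a6b, Ms4a6c and Ms4a6d at chr19:11469366-11604849. The lectin genes Clec4a1, Clec4a3 and Clec4b1 were at chr6:122921848-123071555. Several of these runs are families of close copies, in which counting can share fragments between members. All coordinates are on GRCm38.

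Protein-coding genes made up 72.5% of the genes at least 2-fold higher in Gr_1, 87.6% of those at least 2-fold lower and 83.7% of all genes tested. Of the at least 2-fold higher genes 242 passed the filter only through Gr_1, and of the lower ones 82 only through fl. Across 11882 genes the departure of fl C from the mean of fl A and fl B had a Spearman's rho of -0.18 with exon length, while the change between Gr_1 and fl had 0.06. These are descriptions across genes of the same libraries, and genes are not independent replicates.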
